A study of Mus musculus with 22 samples.

Results

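Splenic immature B cells of toxin-treated Tcrd-GDL mice were set against those of toxin-treated Tcrd-H2BeGFP mice, 5 of the 22 samples of the series. The members are 2 Tcrd-GDL DTx libraries (replicates 4 and 5) and 3 Tcrd-H2BeGFP DTx libraries (replicates 1, 2 and 3), chosen by their labels, and the genes tested are the 13364 of 26097 in the table of experiment 2 with a mean of at least 10. Both groups received diphtheria toxin (DTx) at 15 ng per g of body weight, given 2 times with 48 h between injections, and B220+CD93+ spleen cells were taken on day 8 after the first. The same table holds 5 libraries of untreated Tcrd-GDL mice (replicates 4 to 8), whose values are given last. Tcrd-GDL mice carry a reporter in the T cell receptor delta locus that adds a toxin receptor to gamma delta T cells, and the series design describes the toxin-treated mice as depleted of these cells. Tcrd-H2BeGFP mice carry a nuclear green fluorescent reporter in that locus, and the labels do not say whether they bear a toxin receptor. Toxin is therefore common to both groups, while depletion and strain cannot be told apart in this comparison. The labels give neither age nor sex, nor whether the libraries of a group came from separate animals, so the p-values cover only how far these libraries vary, which may be technical.

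CD93 marks B cells that have left the bone marrow recently. As such cells mature in the spleen they stop expressing the recombination genes Rag1 and Rag2, lower CD93 and CD24, raise IgD, and become long-lived follicular or marginal zone cells. Gamma delta T cells are a small lymphocyte population that can act on B cells through cytokines and contact.

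Values are normalized read counts, the authors' counts per gene scaled per library. A log2 difference is Tcrd-GDL DTx minus Tcrd-H2BeGFP DTx on the log2(value + 1) scale with its SE, which understates the change of low genes. A gene is called when limma's Benjamini-Hochberg adjusted p over all tested genes is under 0.05. The libraries held 22022330 to 36840455 reads. B cell identity was high in all libraries: Cd79a had 22180 and 23020 normalized counts in Tcrd-GDL DTx cells and 22570, 25390 and 21350 in Tcrd-H2BeGFP DTx cells. Of 8 B cell identity genes 1 was called, Ptprc, which encodes CD45 and its B220 form (log2 difference -0.50 ± 0.13, adjusted p = 0.0254). The gate's other marker, Cd93, differed between the groups, as described next.

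Of 13364 genes 1212 were called (9.07%), 612 higher (4.58%) and 600 lower (4.49%) in Tcrd-GDL DTx cells, with 165 (1.23%) higher and 181 (1.35%) lower by at least 2-fold. The groups did not overlap for 42.1% of all tested genes and for 1210 of the called ones. Recombination and early stage genes, mitosis genes, immunoglobulin G constant genes and interferon response genes held members lower in Tcrd-GDL DTx cells. Glucocorticoid-responsive genes, ribosomal protein genes, MHC class II genes and small noncoding RNA genes held members higher in Tcrd-GDL DTx than in Tcrd-H2BeGFP DTx cells. In bulk RNA, fewer cells of a type and less RNA per cell cannot be told apart. Fitted with the same libraries, Tcrd-GDL DTx against untreated Tcrd-GDL had 40 called genes (0.299%), 17 higher (0.127%) and 23 lower (0.172%). Tcrd-H2BeGFP DTx against untreated Tcrd-GDL had 2093 (15.7%), 978 higher (7.32%) and 1115 lower (8.34%). These comparisons share libraries, and their values stand side by side only.

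**Figure D1:**
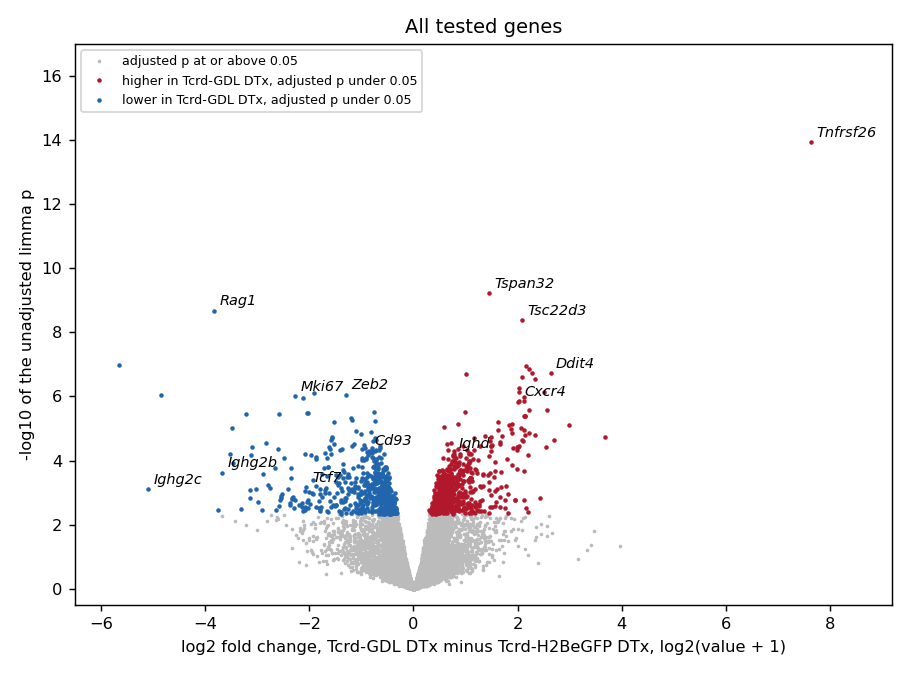
Log2 difference (x axis, Tcrd-GDL DTx minus Tcrd-H2BeGFP DTx on log2(value + 1)) against -log10 of the unadjusted limma p (y axis) for all 13364 tested genes, with called genes in red (612 higher) and blue (600 lower). Tnfrsf26 lies far to the right at 7.63, and Rag1 stands apart among the lower genes at -3.84.

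The Tcrd-GDL DTx libraries were not alike, and most calls rested on replicate 4. On the first principal component, which held 33% of the variance of the 10 libraries, replicate 4 lay at -51.6 and replicate 5 at -3.28, against 26.4, 36.1 and 34.3 for the Tcrd-H2BeGFP DTx libraries and -22.6 to 13.6 for the untreated ones. Among the 1212 called genes, replicate 4 was farther from the Tcrd-H2BeGFP DTx mean than replicate 5 for 1133 (93.5%). Replicate 5 lay on the reported side for 1212, but the genes were called with both replicates, so this is no test of their agreement. The median size of the log2 difference over the called genes was 0.91 for replicate 4 and 0.50 for replicate 5. Without replicate 4, 39 genes were called, 37 of them among the 1212, and without replicate 5 it was 2716, fits that take the spread of the lone library from the other groups. Leaving out Tcrd-H2BeGFP DTx replicate 2 or 3 gave 236 or 550, and leaving out untreated replicate 4 or 7 gave 802 each.

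**Figure D2:**
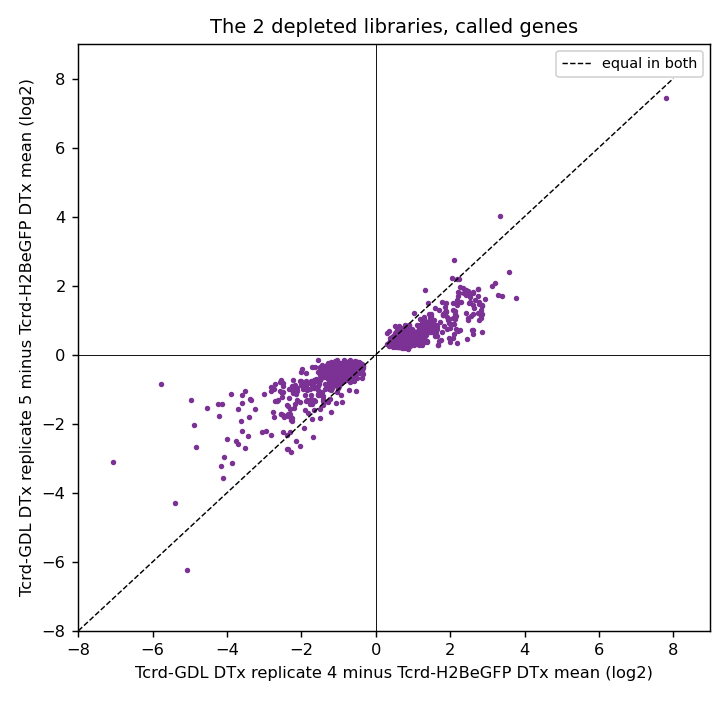
Log2 level of Tcrd-GDL DTx replicate 4 (x axis) and replicate 5 (y axis), each minus the mean log2 level of the 3 Tcrd-H2BeGFP DTx libraries, for the 1212 called genes. The points lie in the quadrants of shared sign, which calling genes on both libraries favours. Of them, 93.5% are farther from 0 on the x axis than on the y axis.

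A level term for T cell transcripts also changed the counts. The mean log2 level of 15 T cell genes was 5.76 and 6.38 in Tcrd-GDL DTx libraries, against 7.57, 7.06 and 7.41 in Tcrd-H2BeGFP DTx libraries, and 5.43 to 7.30 in untreated ones, where replicate 8 was the highest. With this level as a term in the fit, 30 genes were called, 29 of them among the 1212. The level did not overlap between the compared groups and was averaged over genes of which some were called here. Calls lost with it therefore do not measure the part of T cell transcripts. There were 23 genes that passed in each of the 20 alternatives run, 16 higher and 7 lower. The higher ones included Tnfrsf26, Tspan32, Tsc22d3, Ddit4, Cxcr4, Pgap1, Mrgpre, Slc35g1 and Rmrp, and the lower ones were Rag1, Il2ra, Zeb2, Agbl1, Gpm6a, Osbpl5 and the predicted gene Gm15446. This list was read off after the values were seen.

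Rag1, which encodes the catalytic subunit of the V(D)J recombinase, had the lowest p of all the genes that fell. It had 36.2 and 52.5 normalized counts in Tcrd-GDL DTx cells, against 610.8, 726.1 and 581.4 in Tcrd-H2BeGFP DTx cells. All 3 Tcrd-H2BeGFP DTx libraries stood more than 10 times above both Tcrd-GDL DTx libraries, and the untreated libraries, at 94.8 to 298.9, fell between them. The log2 difference was -3.84 ± 0.33 (adjusted p = 9.38e-06). Its partner Rag2 had 3.29 and 2.33 counts, against 31.5, 21.5 and 14.1 (log2 difference -2.56 ± 0.68, adjusted p = 0.0320). At 3.29 and 2.33 the Tcrd-GDL DTx libraries held no more than 3 reads each.

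Of 11 tested genes of early immature and transitional B cells (16 listed), 6 were called lower and 0 higher, with a median log2 difference of -0.54 against -0.0019 over all tested genes. Cd93, the C1q receptor family gene used in the sort, had 1094 and 1187 counts in Tcrd-GDL DTx cells, against 1757, 2200 and 2290 in Tcrd-H2BeGFP DTx cells (log2 difference -0.86 ± 0.16, adjusted p = 0.00597). Sox4, a transcription factor gene of lymphoid progenitors, had 616.2 and 623.9, against 860.3, 1094 and 1007 (-0.66 ± 0.13, adjusted p = 0.00739). Myb, a transcription factor gene needed by immature B cells, had 929.8 and 1095, against 1618, 1403 and 1526 (-0.58 ± 0.12, adjusted p = 0.0117). In each of these genes the groups were apart, though for Cd93 the untreated libraries (905.5 to 1409) spanned the Tcrd-GDL DTx values. Cd24a, the heat stable antigen of immature B cells, was the sixth called gene (-0.54 ± 0.16, adjusted p = 0.0473). The other 5 tested members, Vpreb3, Lef1, Spn, Dntt and Il7r, did not pass. Igll1, Vpreb1, Erg and Kit were below the filter, at 0 to 20.4 counts in the 5 libraries. Rag1 alone of the list passed without Tcrd-GDL DTx replicate 4, where the median of the list was -0.35.

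Markers of the mature follicular stage differed less. Ighd, the IgD heavy chain constant gene, had 21460 and 15300 counts in Tcrd-GDL DTx cells, against 10180, 11750 and 10010 in Tcrd-H2BeGFP DTx cells, and 9662 to 12540 in untreated cells. The Tcrd-GDL DTx libraries stood above all 8 others, and the log2 difference was 0.77 ± 0.14 (adjusted p = 0.00677). Bcl2, the survival gene, had 2410 and 2160, against 1482, 1691 and 1844 (0.45 ± 0.13, adjusted p = 0.0365). Of 15 mature B cell genes 3 rose, among them these, and 0 fell, with a median of 0.02. Cr2, which encodes CD21, had 7285 and 6675 counts against 7082, 7294 and 6648, a log2 difference of -0.01 ± 0.14 that takes either sign over the alternatives. Fcer2a, which encodes CD23, stood at 6552 and 4773 against 4454, 5614 and 4388 (0.22 ± 0.14, adjusted p = 0.311), and at -0.0042 without Tcrd-GDL DTx replicate 4. None of the 15 passed without that replicate. Ighm, the IgM constant gene, had 63610 and 82080 counts against 103100, 107000 and 101300, and did not pass (-0.52 ± 0.18, adjusted p = 0.0811).

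**Figure D3:**
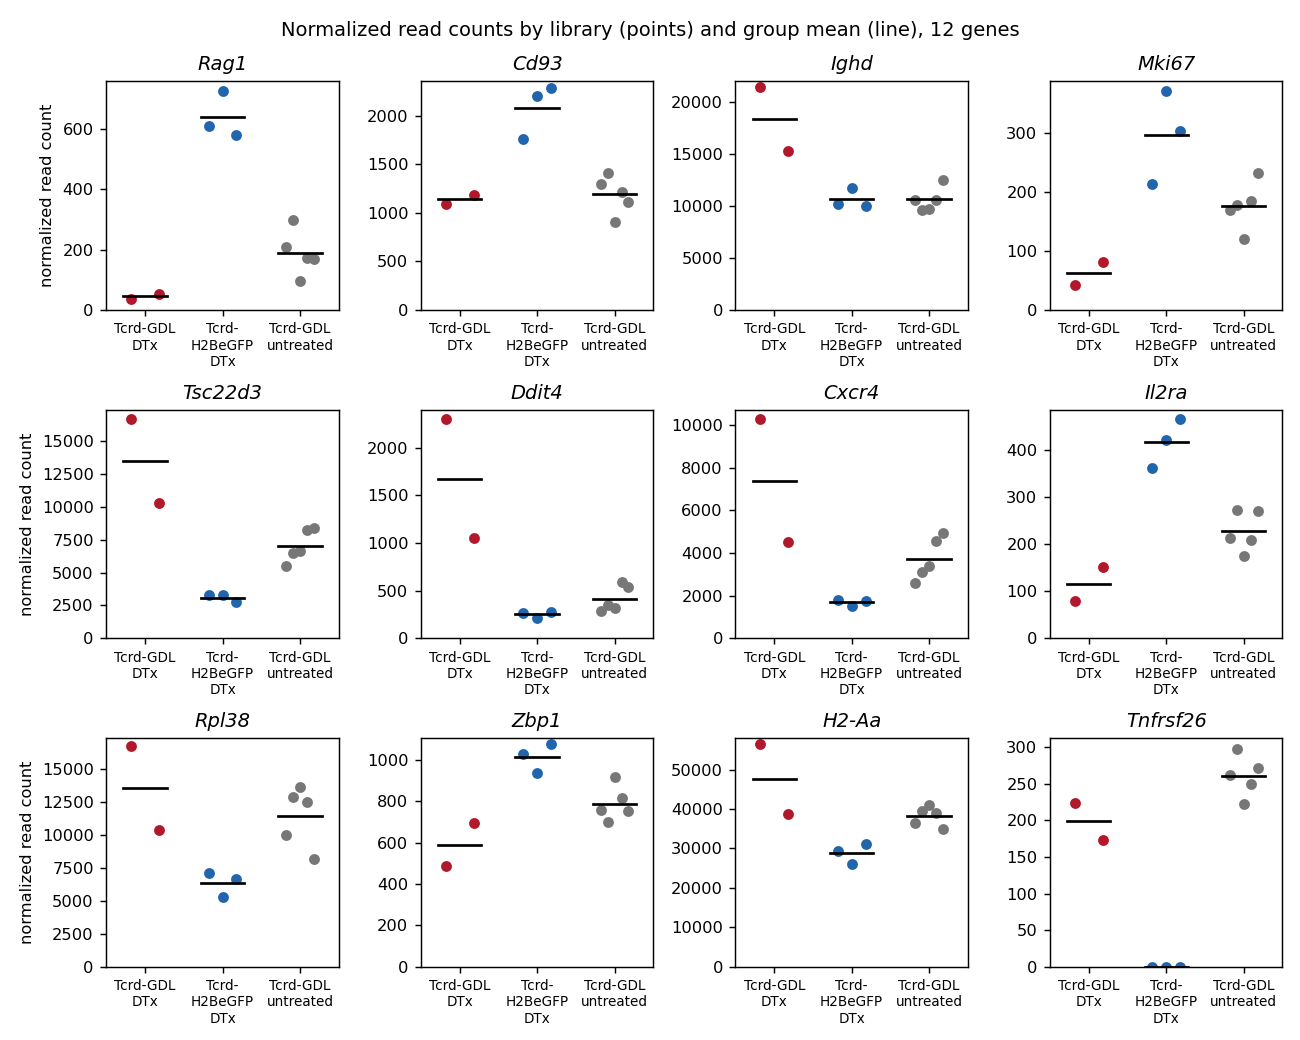
Normalized read counts (y axes, from 0) of 12 genes in each library (points) with group means (lines), for Tcrd-GDL DTx, Tcrd-H2BeGFP DTx and untreated Tcrd-GDL. Rag1, Cd93, Mki67, Il2ra and Zbp1 are lower in both Tcrd-GDL DTx libraries than in all Tcrd-H2BeGFP DTx ones, and Tnfrsf26 has 0 counts in all 3 Tcrd-H2BeGFP DTx libraries.

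Among B lineage transcription factor genes, 8 of 21 were called lower and 0 higher, with a median of -0.32. Against untreated Tcrd-GDL the median was -0.06 for Tcrd-GDL DTx, with 0 called, and 0.25 for Tcrd-H2BeGFP DTx. Zeb2, a repressor that limits the germinal centre program and favours atypical B cells, had 1368 and 2419 counts in Tcrd-GDL DTx cells, against 4045, 4726 and 4720 in Tcrd-H2BeGFP DTx cells (-1.30 ± 0.17, adjusted p = 0.000682). It passed in all 20 alternatives. Bach2, a repressor of plasma cell differentiation, had 4327 and 5241, against 6065, 8188 and 7544 (-0.60 ± 0.15, adjusted p = 0.0230). Ebf1, Spib, Foxo1, Ikzf1, Tcf4 and Bcl11a made up the other 6, with differences between -0.36 and -0.53, and none of them passed without Tcrd-GDL DTx replicate 4. Zeb2 was the 1 gene of the list left there, with the T cell term and without Tcrd-H2BeGFP DTx replicate 2 or 3.

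Of 20 B cell receptor signalling genes 5 fell and 0 rose (median -0.26). Against untreated Tcrd-GDL the list's median was -0.09 for Tcrd-GDL DTx, with 0 called, and 0.16 for Tcrd-H2BeGFP DTx. Cd81, a tetraspanin gene of the B cell coreceptor, had 1925 and 2471 counts against 3633, 3539 and 3591 (-0.72 ± 0.12, adjusted p = 0.00444). The guanine exchange factor genes Rasgrp3 and Vav2, the adaptor gene Pik3ap1 and the phospholipase gene Plcg2 fell by 0.47, 0.39, 0.39 and 0.43 on the log2 scale. None of the 5 passed without Tcrd-GDL DTx replicate 4 or with the T cell term, and 1 did without Tcrd-H2BeGFP DTx replicate 2 or 3. Il2ra, which encodes the alpha chain of the interleukin-2 receptor, fell further: it had 78.9 and 151.6 counts in Tcrd-GDL DTx cells, against 363.7, 423 and 467.9 in Tcrd-H2BeGFP DTx cells (-1.92 ± 0.25, adjusted p = 0.000644). Icosl, the ICOS ligand gene, rose, with 2802 and 2526 against 1739, 1636 and 1746 (0.64 ± 0.11, adjusted p = 0.00529). Il2ra passed in all 20 alternatives, and Icosl lost its call without Tcrd-GDL DTx replicate 4 and with the T cell term. Of 18 inhibitory receptors and signalling brakes 2 rose and 3 fell. Ptpn22, a phosphatase gene of antigen receptor signalling, had 2675 and 1305 counts against 898.8, 870.5 and 833 (1.11 ± 0.21, adjusted p = 0.00677), and Rgs2, a regulator of G protein signalling, had 1357 and 1894 against 2837, 2366 and 2915 (-0.75 ± 0.15, adjusted p = 0.0114). Both lost their calls without Tcrd-GDL DTx replicate 4 and with the T cell term.

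Constant genes of switched immunoglobulin G were lower in Tcrd-GDL DTx libraries. Ighg2c had 12.1 and 202.9 counts in Tcrd-GDL DTx libraries, against 1180, 1927 and 2429 in Tcrd-H2BeGFP DTx libraries. Ighg2b had 88.8 and 171.4, against 1232, 1207 and 2734, and Ighg1 had 10.96 and 30.3, against 282.1, 81.9 and 129. The groups did not overlap for these 3 genes, which was a condition for naming them. The untreated libraries ran from 11.2 to 671.6 for Ighg2c and from 44.9 to 1032 for Ighg2b. Log2 differences were -5.10 ± 1.24, -3.68 ± 0.79 and -2.91 ± 0.85 (adjusted p = 0.0219, 0.0132 and 0.0447). Ighg3 and Igha were high in 1 Tcrd-H2BeGFP DTx library: Ighg3 had 32.9 and 74.6 counts against 249.5, 251.9 and 4269, and Igha 128.3 and 67.6 against 92.1, 76.8 and 5088, and neither passed (adjusted p = 0.0551 and 0.348). Without Tcrd-GDL DTx replicate 4 the adjusted p of Ighg2c, Ighg2b and Ighg1 was 0.424, 0.281 and 0.455.

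Mitosis genes were lower as a group: 11 of 24 were called lower and 0 higher, 23 of 24 had a negative log2 difference, and the median was -1.03. Mki67, the gene of the proliferation antigen Ki-67, had 42.8 and 81.6 counts in Tcrd-GDL DTx cells, against 213.3, 372.8 and 304.4 in Tcrd-H2BeGFP DTx cells and 119.7 to 233.3 in untreated cells. Both Tcrd-GDL DTx libraries were below all 8 others (-2.27 ± 0.30, adjusted p = 0.000693). Top2a, the mitotic DNA topoisomerase gene, had 152.4 and 317.2, against 544.4, 594 and 908.4 (-1.59 ± 0.30, adjusted p = 0.00677). Kif11, a spindle motor gene, had 27.4 and 68.8, against 141, 153.6 and 240.3 (-1.97 ± 0.37, adjusted p = 0.00702). In the untreated libraries Top2a ran from 250.7 to 530.4 and Kif11 from 66.6 to 155, so the Tcrd-GDL DTx replicate 5 values lay inside that range. The others called were Tpx2, Cenpf, Kif20a, Kif23, Prc1, Hmmr, Nusap1 and Ube2c, between -0.85 and -2.42. Without Tcrd-GDL DTx replicate 4, Mki67 was the 1 called member and the median was -0.87, and with the T cell term none passed and the median was -0.46. Without Tcrd-H2BeGFP DTx replicate 2 or 3, 6 or 4 of the 24 were called. DNA replication genes moved less, with 5 of 29 lower, 0 higher and a median of -0.26. Uhrf1, which guides maintenance DNA methylation, had 119.5 and 253.1 counts against 486.1, 431.2 and 484.9 (-1.42 ± 0.26, adjusted p = 0.00582). Lig1, Cdc6 and E2f2 also fell, by 0.83, 1.53 and 0.63 on the log2 scale. None of the replication genes passed without Tcrd-GDL DTx replicate 4 or with the T cell term.

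Promoters of cell cycle genes that peak at mitosis often hold a CCAAT box and a cell cycle genes homology region (CHR, TTTGAA), and the called mitosis genes are shown with both. RefSeq promoters (GRCm38.p6, 250 bases before to 50 after the start, both strands searched) were matched for 9 of the 11 called mitosis genes. A CCAAT box was found in 8 of the 9 and a CHR in 8, against 41.1% and 20.2% of 27025 genes. Mitosis genes that were not called were not counted, so these shares do not set called apart from uncalled members. A match is a description of letters and not a shown binding site. For the 3 mitosis genes with the lowest p, the 200 bases before the start are printed 5′ to 3′ on the gene's strand, with CCAAT and TTTGAA, or their reverse complements, in capitals. They are chr7:135716380-135716579, minus strand, for Mki67, chr11:99024190-99024389, minus strand, for Top2a, and chr19:37376182-37376381, plus strand, for Kif11.
Mki67: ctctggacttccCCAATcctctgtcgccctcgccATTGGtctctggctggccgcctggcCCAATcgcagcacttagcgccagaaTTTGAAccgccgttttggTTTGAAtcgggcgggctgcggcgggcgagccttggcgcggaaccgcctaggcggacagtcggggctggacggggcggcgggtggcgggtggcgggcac
Top2a: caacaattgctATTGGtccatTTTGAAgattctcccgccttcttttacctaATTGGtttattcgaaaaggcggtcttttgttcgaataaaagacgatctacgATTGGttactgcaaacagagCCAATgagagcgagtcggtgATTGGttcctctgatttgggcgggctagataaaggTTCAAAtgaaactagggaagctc
Kif11: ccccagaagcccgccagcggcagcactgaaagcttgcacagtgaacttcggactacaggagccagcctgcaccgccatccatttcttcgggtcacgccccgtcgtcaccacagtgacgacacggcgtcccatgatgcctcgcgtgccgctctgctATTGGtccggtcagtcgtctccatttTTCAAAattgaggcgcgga
In these stretches Mki67 held 3 CCAAT boxes and 2 CHR, Top2a held 5 and 2, and Kif11 held 1 of each, its CCAAT box 45 and its CHR 19 bases before the start.

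Replication-dependent histone genes, which make histone mRNA in S phase, did not follow the mitosis genes. Of 22 tested 5 rose and 1 fell, with a median of 0.62. Against untreated Tcrd-GDL the median was 0.06 for Tcrd-GDL DTx and -0.52 for Tcrd-H2BeGFP DTx. Hist1h2bc had 2266 and 1775 counts in Tcrd-GDL DTx cells, against 910.4, 731.2 and 1094 in Tcrd-H2BeGFP DTx cells (1.16 ± 0.20, adjusted p = 0.00417). Hist1h3b had 247.8 and 313.7, against 444.1, 430.1 and 734.3 (-0.90 ± 0.23, adjusted p = 0.0259). These genes have close copies, so reads can be split among them. The summed level was 141900 in Tcrd-GDL DTx replicate 4 and 66840 in replicate 5, against 63420, 50480 and 64890, and without replicate 4 none was called and the median was 0.14. The median was -0.47 in experiment 1, described at the end.

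Glucocorticoid-responsive genes had 8 of 16 tested members called higher and 0 lower, with a median of 0.73. Of the 16, 11 had a positive and 5 a negative log2 difference, down to -1.28. Tsc22d3, the gene of the leucine zipper protein GILZ, had 16730 and 10320 counts in Tcrd-GDL DTx cells, against 3271, 3253 and 2775 in Tcrd-H2BeGFP DTx cells and 5520 to 8372 in untreated cells. Both Tcrd-GDL DTx libraries were above all others and all Tcrd-H2BeGFP DTx libraries below (2.09 ± 0.19, adjusted p = 1.37e-05). Ddit4, an mTORC1 inhibitor gene induced by stress, had 2296 and 1052, against 264.6, 213 and 276.3 (2.63 ± 0.31, adjusted p = 0.000263). Cxcr4, the receptor for the stromal chemokine CXCL12, had 10290 and 4497, against 1774, 1502 and 1756 (2.02 ± 0.28, adjusted p = 0.000817). Tcrd-GDL DTx replicate 4 had more than replicate 5 in each of these genes, and both stood above all Tcrd-H2BeGFP DTx libraries. Fkbp5, a cochaperone gene of the glucocorticoid receptor, had 857.4 and 454.8, against 222.6, 291.9 and 305.9 (1.20 ± 0.25, adjusted p = 0.0120). Dusp1, a MAP kinase phosphatase gene, had 934.2 and 410.5, against 244.8, 202.8 and 214.2 (1.49 ± 0.25, adjusted p = 0.00406), and Pik3ip1, an inhibitor of PI3 kinase, had 3426 and 1459, against 809, 915.6 and 858.4 (1.38 ± 0.23, adjusted p = 0.00381). Txnip and Sgk1 were the other called members, and Nfkbia (0.43 ± 0.13, adjusted p = 0.0561), Klf9 (0.19 ± 0.20) and Per1 (-0.00 ± 0.13), which glucocorticoids also induce, did not pass. Without Tcrd-GDL DTx replicate 4, 4 of the 16 were called and the median was 0.26, and with the T cell term 3 were called.

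A full glucocorticoid response element, AGAACA and its reverse complement TGTTCT with 3 bases between them, was present in 3 of 32851 RefSeq promoters, and 1 of them belongs to Sgk1, the serum and glucocorticoid kinase gene, which is why it is printed. Sgk1 had 927.6 and 502.6 counts in Tcrd-GDL DTx cells, against 391.7, 424 and 434.1 in Tcrd-H2BeGFP DTx cells and 464.4 to 597.4 in untreated cells (0.71 ± 0.19, adjusted p = 0.0322). All 8 called glucocorticoid-responsive genes were matched, and 3 held AGAACA alone or within the full element, against 21.3% of genes. Members that were not called were not counted. The stretch is chr10:21993690-21993889, plus strand, 1 of several Sgk1 starts, with AGAACA and TGTTCT in capitals, 189 bases before the start.
Sgk1: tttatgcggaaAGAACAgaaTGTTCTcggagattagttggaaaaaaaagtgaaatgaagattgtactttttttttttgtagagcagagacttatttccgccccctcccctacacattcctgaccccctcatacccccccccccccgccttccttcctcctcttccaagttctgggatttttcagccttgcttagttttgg

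FOXO target genes, which overlap the glucocorticoid list in Ddit4, Pik3ip1 and Txnip and the early list in Rag1 and Rag2, had 5 of 20 members higher and 2 lower. Sesn1, a stress sensor gene that restrains mTORC1, had 5470 and 2083 counts against 1883, 1613 and 1643 (0.98 ± 0.24, adjusted p = 0.0231), with replicate 4 well above replicate 5. The median was 0.04, and turned to -0.10 with quantile normalization and to -0.05 without Tcrd-GDL DTx replicate 4. Among immediate early genes 2 of 19 rose (Dusp1 and Ier2) and 1 fell, Egr1, with 1119 and 905 counts against 1265, 1689 and 1405 (-0.52 ± 0.15, adjusted p = 0.0400). Of 17 chemokine and positioning receptor genes 3 rose, among them Cxcr4 and Gpr174, and 1 fell, the sphingosine phosphate receptor gene S1pr3, with 198.5 and 298.6 against 515.2, 447.6 and 488.4 (-0.99 ± 0.19, adjusted p = 0.00759). Without Tcrd-GDL DTx replicate 4 none of the immediate early genes and 1 positioning receptor gene, Cxcr4, were called. Zfp36l2, an RNA-binding protein gene that destabilizes mRNAs, had 11990 and 5189, against 2844, 2948 and 2637 (1.49 ± 0.27, adjusted p = 0.00547), and lost the call without Tcrd-GDL DTx replicate 4 (adjusted p = 0.188).

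Type I interferon response genes were lower, with 11 of 30 called lower, 0 higher and a median of -0.54. Zbp1, a nucleic acid sensor gene of cell death, had 485.7 and 693.9 counts in Tcrd-GDL DTx cells, against 1029, 934 and 1076 in Tcrd-H2BeGFP DTx cells and 700.8 to 918 in untreated cells (-0.80 ± 0.15, adjusted p = 0.00669). Both Tcrd-GDL DTx libraries lay below all 8 others. Dhx58 and Ddx58, RNA sensor genes of the RIG-I family, had 230.3 and 292.7 against 493.1, 469.1 and 402.4, and 1504 and 2328 against 2830, 3349 and 3048 (-0.80 ± 0.15 and -0.71 ± 0.14). Also called were Oas2, Oas3, Oasl2, Parp14, Ifi203, Ifit2 and Ifih1. None of the 11 passed without Tcrd-GDL DTx replicate 4, where the median was -0.15, and none passed with the T cell term. Without Tcrd-H2BeGFP DTx replicate 2 or 3, 4 or 7 of the list were called. Against untreated Tcrd-GDL, interferon gamma induced GTPase genes had a median of -0.13 for Tcrd-GDL DTx and 0.42 for Tcrd-H2BeGFP DTx. Between the 2 toxin-treated groups 3 of 16 fell, Gbp6, Tgtp2 and Irgm2, and all 16 had a negative log2 difference (median -0.43). None of these 3 passed without replicate 4.

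An interferon-stimulated response element, GAAA repeated after 2 bases, lay in the promoters of 4 of the 6 matched called interferon genes, against 3.99% of all genes. Interferon genes that were not called were not counted, so this share does not set called apart from uncalled members. Oas3, a 2-5A synthetase gene of antiviral defence, had 37.3 and 82.8 counts in Tcrd-GDL DTx cells, against 123.6, 161.8 and 138.8 in Tcrd-H2BeGFP DTx cells (-1.32 ± 0.30, adjusted p = 0.0171). It is printed as an example of a called gene whose 200 bases before the start hold the element, at chr5:120777660-120777859, minus strand, with the fixed letters in capitals, 75 bases before the start.
Oas3: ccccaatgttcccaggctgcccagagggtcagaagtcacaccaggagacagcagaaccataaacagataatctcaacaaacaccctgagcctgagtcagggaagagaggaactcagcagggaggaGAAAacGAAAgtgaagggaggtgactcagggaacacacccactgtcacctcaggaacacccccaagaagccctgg

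MHC class II genes, which present peptides to CD4 T cells, had 4 of 12 members higher and 0 lower (median 0.39). H2-Aa had 56480 and 38800 counts in Tcrd-GDL DTx cells, against 29380, 25990 and 31080 in Tcrd-H2BeGFP DTx cells (0.70 ± 0.16, adjusted p = 0.0150). H2-Ob, which tunes peptide exchange in B cells, had 15050 and 11260, against 8341, 8056 and 8585 (0.65 ± 0.14, adjusted p = 0.0120). H2-DMa and H2-Eb1 rose by 0.36 and 0.42, and H2-Eb1 turned to -0.0067 with quantile normalization. None passed without Tcrd-GDL DTx replicate 4 or without Tcrd-H2BeGFP DTx replicate 2. Of 18 MHC class I and antigen processing genes, 19 glycolysis genes and 9 BAFF receptor family genes none was called by limma, with medians of -0.24, -0.17 and -0.17.

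**Figure D4:**
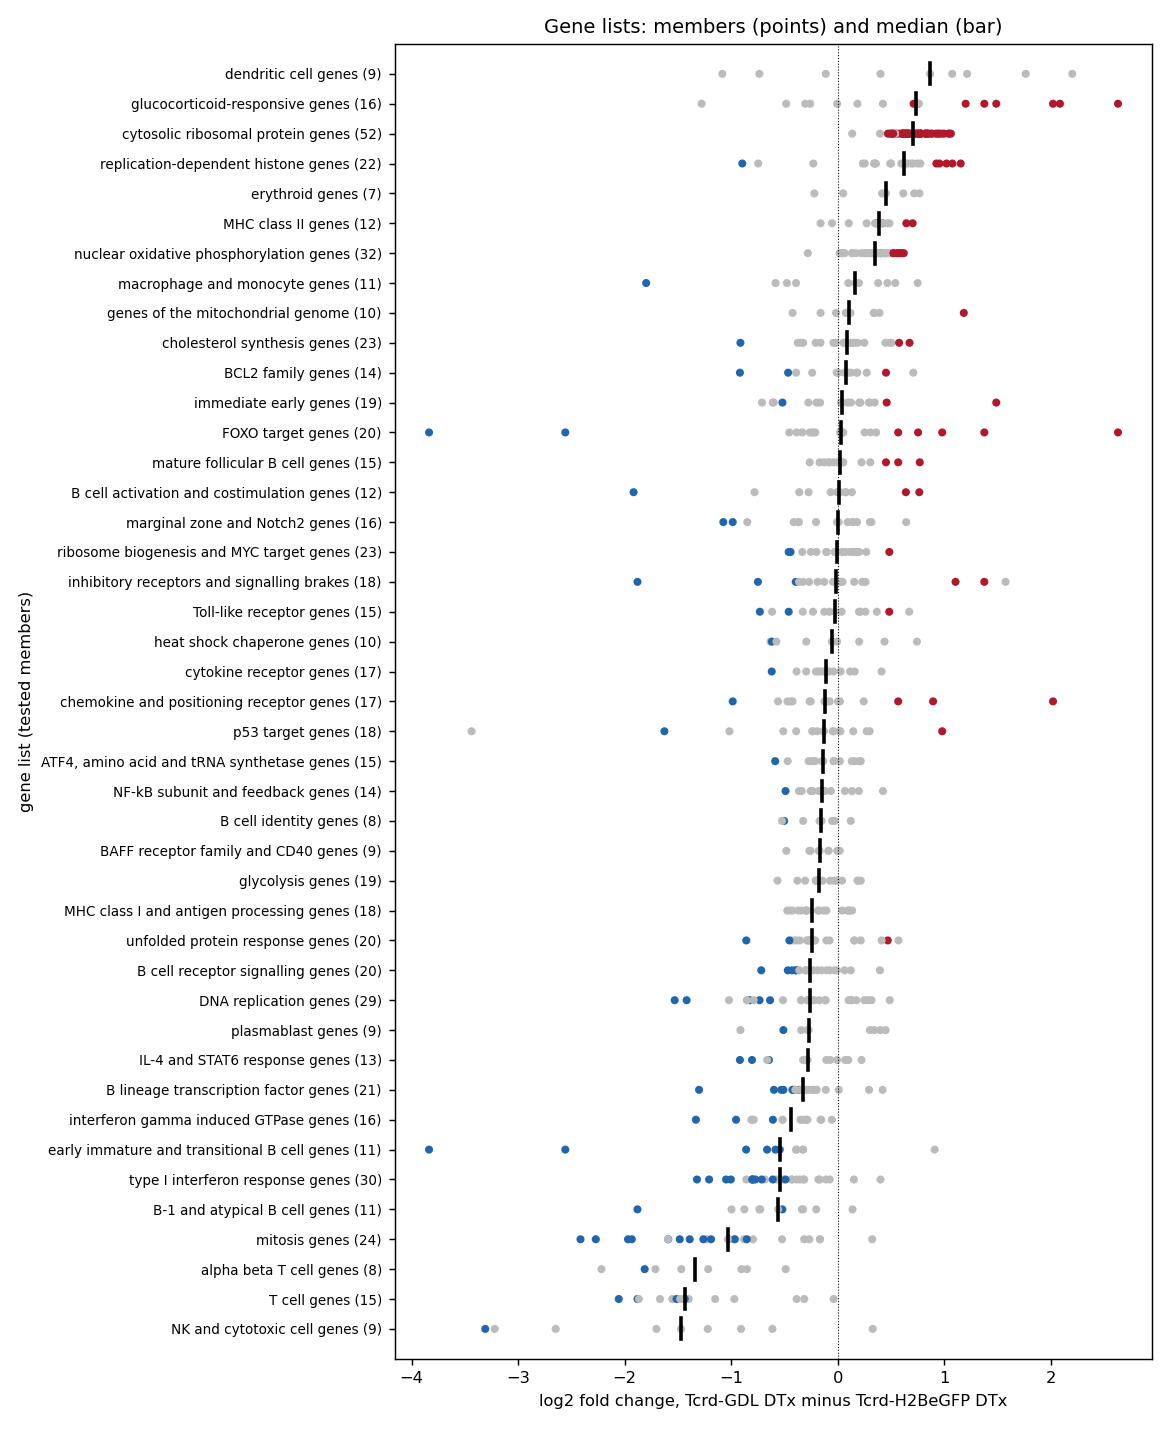
Log2 difference (x axis, Tcrd-GDL DTx minus Tcrd-H2BeGFP DTx) of each tested member (points) and the median (black bar) of gene lists with at least 5 tested members (rows, number tested in brackets), red and blue for genes called higher and lower. The NK, T cell, alpha beta T cell and mitosis lists have the lowest medians, at -1.47, -1.44, -1.34 and -1.03, and the glucocorticoid list is second from the top at 0.73.

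Cytosolic ribosomal protein genes were higher than in Tcrd-H2BeGFP DTx cells nearly throughout: 49 of 52 were called higher, 52 of 52 had a positive log2 difference, and the median was 0.71. Rpl38 had 16750 and 10370 counts in Tcrd-GDL DTx cells, against 7128, 5272 and 6670 in Tcrd-H2BeGFP DTx cells and 8118 to 13590 in untreated cells (1.06 ± 0.21, adjusted p = 0.00933). Tcrd-GDL DTx replicate 5 lay within the untreated range. The list's median against the untreated libraries was 0.17 for Tcrd-GDL DTx, with 0 called, and -0.58 for Tcrd-H2BeGFP DTx. With quantile normalization 25 of 52 were called and the median was 0.39, and none was called without Tcrd-GDL DTx replicate 4, where the median was 0.50. Without Tcrd-H2BeGFP DTx replicate 2 it was 3 of 52, with a median of 0.61. Against the untreated libraries the nuclear oxidative phosphorylation list had a median of -0.07 for Tcrd-GDL DTx and -0.44 for Tcrd-H2BeGFP DTx. Nuclear oxidative phosphorylation genes had 8 of 32 higher, among them Sdhc, Ndufb5, Ndufb9 and Cox4i1, 0 lower and a median of 0.35, and none was called without Tcrd-GDL DTx replicate 4 or Tcrd-H2BeGFP DTx replicate 2.

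Some small noncoding RNA genes also rose. Of 247 genes of small nucleolar, small nuclear and Cajal body RNAs, grouped by their annotation after the values were seen, 57 were called higher and 1 lower, with a median of 0.75 against -0.02 for 10940 protein-coding genes. Beside these classes, the ribozyme gene Rmrp, the RNA component of RNase MRP, which cleaves precursor ribosomal RNA, also rose. It had 73310 and 40900 counts in Tcrd-GDL DTx cells, against 8596, 9558 and 15500 in Tcrd-H2BeGFP DTx cells and 18120 to 33350 in untreated cells (2.34 ± 0.28, adjusted p = 0.000307). Scarna6, a guide RNA of Cajal bodies, had 1604 and 797.7, against 241.3, 283.7 and 324.2 (2.01 ± 0.27, adjusted p = 0.000833). Of the 247, 6 were called higher without Tcrd-GDL DTx replicate 4 (median 0.39), 30 without Tcrd-H2BeGFP DTx replicate 2 and 3 with the T cell term (median 0.39), alternatives added after the values were seen. Rmrp passed in each, and Scarna6 missed with the T cell term (adjusted p = 0.0544).

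Further B cell lists had few called members. Of 13 interleukin-4 and STAT6 response genes 3 fell: the cytokine signalling inhibitor Socs1 (-0.80), the kinase gene Pim1 (-0.65) and the survival gene Bcl2l1 (-0.92). Of 14 BCL2 family genes Bcl2 rose and Bcl2l1 and the pore-forming Bak1 (-0.47) fell. Fas, the death receptor gene and a p53 target, had 40.6 and 42.0 counts in Tcrd-GDL DTx cells, against 145.7, 100.4 and 148.7 in Tcrd-H2BeGFP DTx cells (-1.63 ± 0.29, adjusted p = 0.00548), and it and Sesn1 were the 2 of 18 p53 targets called. Among 15 Toll-like receptor genes Tlr1 rose by 0.48, and Tlr9, the DNA sensor of B cells, and Cd180 fell by 0.73 and 0.46. Of 16 marginal zone and Notch2 genes Asb2 and S1pr3 fell, and of 9 plasmablast genes Ell2 fell. Of 11 B-1 and atypical B cell genes Bhlhe41 and Cd5 fell, and Cd5 is also a member of the T cell list. In the unfolded protein response list of 20, Hsp90b1, the endoplasmic reticulum chaperone gene, had 3514 and 5847, against 8349, 8419 and 7898 (-0.86 ± 0.16, adjusted p = 0.00669), Atf6 fell and Dnajb9 rose. Single members fell among 14 NF-kB genes (Nfkb1), 17 cytokine receptor genes (Il6st) and 15 ATF4 pathway genes (Wars), while 23 ribosome biogenesis and MYC target genes had 1 higher (Gnl3) and 2 lower (Polr1a and Cad), and 23 cholesterol synthesis genes 2 higher (Sc5d and Abca1) and 1 lower. Of 10 genes of the mitochondrial genome mt-Co3 rose by 1.18, and of 10 heat shock chaperone genes Hsp90ab1 fell by 0.62. None of the genes named for these lists passed without Tcrd-GDL DTx replicate 4 or with the T cell term.

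Several of the largest differences lay outside these lists. Among the higher genes, Ccdc107 had 3135 and 1263 counts in Tcrd-GDL DTx cells, against 375.4, 442.4 and 567.3 in Tcrd-H2BeGFP DTx cells and 787.8 to 1334 in untreated cells (2.13 ± 0.29, adjusted p = 0.000817). Slc35g1, a solute carrier family gene, had 96.5 and 93.3, against 22.2, 16.4 and 21.1 (2.21 ± 0.32, adjusted p = 0.00139). Its 2 Tcrd-GDL DTx values were close, while those of Ccdc107 were not. Among the lower genes, the microtubule protein gene Map2 had 72.4 and 129.5, against 325.2, 483.4 and 489.1 (-2.12 ± 0.28, adjusted p = 0.000718). Rapgefl1 had 12.1 and 91.0, against 272.8, 257.1 and 213.5 (-2.84 ± 0.50, adjusted p = 0.00503). The collagen gene Col5a3 (-2.61), the membrane glycoprotein gene Gpm6a (-2.58), Padi4 (-2.52) and Gas7 (-2.49) were next in size. That the groups did not overlap was a condition for naming these genes. Slc35g1 and Gpm6a passed in all 20 alternatives. Ccdc107, Map2 and Rapgefl1 lost their calls with the T cell term (adjusted p = 0.0531, 0.0531 and 0.154), and Col5a3, Padi4 and Gas7 lost theirs with that term and without Tcrd-GDL DTx replicate 4. Without that replicate the log2 difference of Rapgefl1 was -1.43.

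Tnfrsf26, a gene of the TNF receptor superfamily, separated the groups by presence. It had 223.7 and 173.8 counts in Tcrd-GDL DTx cells and 0 reads in all 3 Tcrd-H2BeGFP DTx libraries, against 222 to 297.8 in untreated Tcrd-GDL cells. Against a floor of 3 reads over the Tcrd-H2BeGFP DTx group, it was at least 206-fold higher, a bound that covers counting error only. Between Tcrd-GDL DTx and untreated Tcrd-GDL the log2 difference was -0.39 ± 0.27 and did not pass (adjusted p = 0.688). Its neighbours on chromosome 7 were looked at after this value was seen. Between 143005046 and 144424494 (GRCm38), 4 genes were called higher and 5 lower. The first and last genes of this stretch, Tspan32 and Shank2, are called ones and set its edges, so the number called in it is no measure of how it stands against other regions. The higher ones were Tnfrsf26, Tnfrsf22, Mrgpre and Tspan32, a tetraspanin gene of blood cells, which had 1503 and 1578 counts against 547.9, 612.4 and 530.7 (1.45 ± 0.11, adjusted p = 3.95e-06). The lower ones were Cd81, Trpm5, Osbpl5, the antisense gene Kcnq1ot1 and the synaptic scaffold gene Shank2, which had 6.58 and 11.7 against 88.6, 92.2 and 160.7 (-3.50 ± 0.56, adjusted p = 0.00279). Tnfrsf26, Tspan32, Mrgpre and Osbpl5 passed in all 20 alternatives, while Shank2, Tnfrsf22, Cd81, Kcnq1ot1 and Trpm5 lost their calls without Tcrd-GDL DTx replicate 4, and the first 4 of these also with the T cell term. For Shank2, Tspan32 and Mrgpre the untreated Tcrd-GDL libraries ran from 3.74 to 15.6, 1503 to 1873 and 296.5 to 394.3. The predicted gene Gm15446, on chromosome 5, had 6.58 and 2.33 counts against 282.1, 253 and 226.2, and 1.72 to 10.7 in untreated cells. In these genes the untreated Tcrd-GDL libraries lay beside the Tcrd-GDL DTx libraries.

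T cell transcripts moved with the group, and those of other cell types did so in part. In the T cell list 4 of 15 genes were called lower (among them Tcf7, Cd5 and Lat), 0 higher, all 15 had a negative log2 difference, and the median was -1.44. Tcf7 had 66.9 and 89.8 counts in Tcrd-GDL DTx libraries, against 369.5, 274.5 and 339.7 in Tcrd-H2BeGFP DTx libraries and 41.2 to 277.2 in untreated ones. The defining gene Cd3e was at 34.0 and 81.6, against 185.3, 111.6 and 134.6, and did not pass (adjusted p = 0.118). The summed level of the list was 6072 and 6391, against 7894, 7171 and 7538. Against untreated Tcrd-GDL the list's median was 0.0006 for Tcrd-GDL DTx and 1.17 for Tcrd-H2BeGFP DTx. The same medians were -0.06 and 1.18 for the alpha beta T cell list and -0.03 and 1.26 for the NK list. Of 8 alpha beta T cell genes 1 fell (Cd28), of 9 NK and cytotoxic genes 1 fell (Nkg7), and of 11 macrophage and monocyte genes 1 fell, Lyz2, with 142.5 and 241.4 against 584, 538.7 and 864. Of these 11 genes 7 had a positive log2 difference, with a median of 0.17 and summed levels of 3372 and 4161 against 4296, 3797 and 5273. Of 9 dendritic cell genes and 7 erythroid genes none passed by limma, though Tcrd-GDL DTx replicate 4 had the highest Siglech (274.1) and Hbb-bs (2694) of the 5 libraries compared. Of the gamma delta T cell list 6 genes were measured, and 1 passed the filter, Blk, a kinase gene that B cells also express, with 4846 and 4946 counts against 5017, 5182 and 5188. Of those below the filter, Tcrg-C1, Tcrg-C2, Tcrg-C4 and Sox13 had 0 to 8.16 counts in the 5 libraries, so the list gives no reading of depletion. The part of T cell, myeloid and NK transcripts in the gene groups above was not tested. Fits with the T cell level as a term were made. That level separates the compared groups and includes called genes, so these fits cannot measure the part of T cells. With that term 1 of the 11 early genes, 1 of the 15 mature genes, 1 of the 21 transcription factor genes and none of the ribosomal protein, MHC class II, histone, interferon gamma and oxidative phosphorylation lists was called, and the ribosomal protein median was 0.38.

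**Figure D5:**
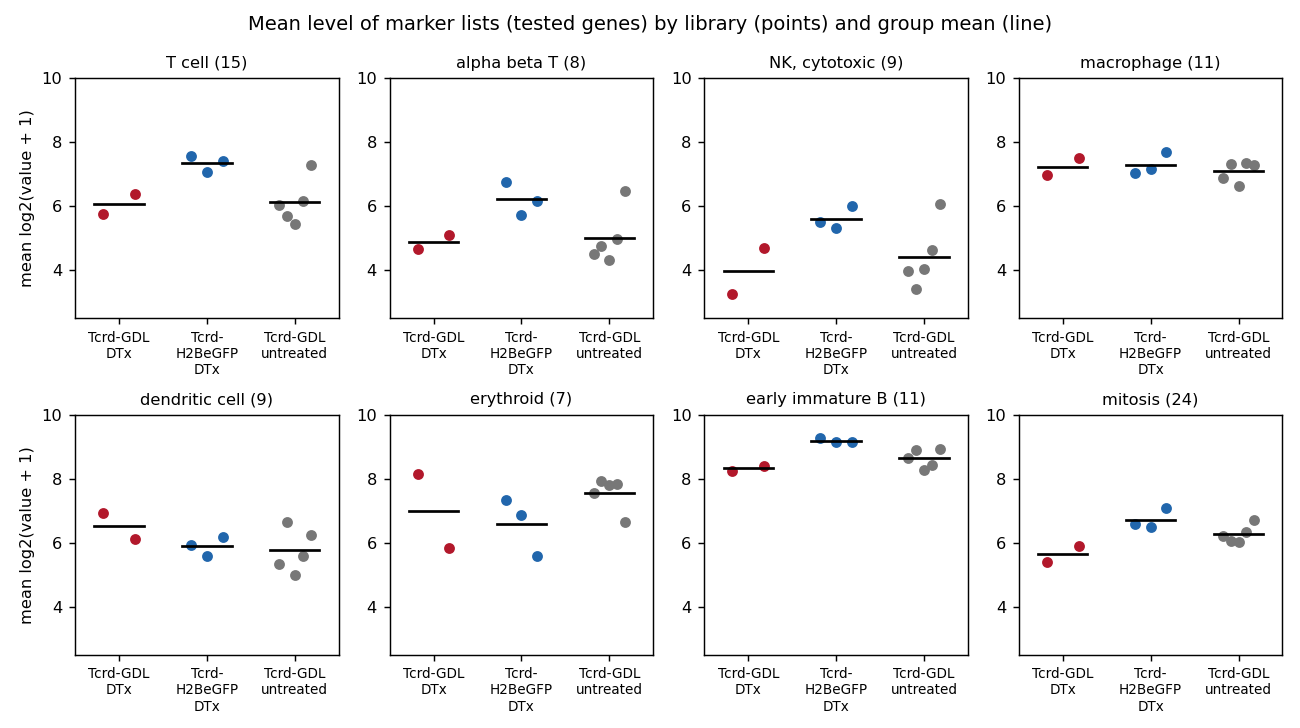
Mean log2(value + 1) over the tested genes of 8 lists (y axis) in each library (points) with group means (lines), for Tcrd-GDL DTx, Tcrd-H2BeGFP DTx and untreated Tcrd-GDL. T cell, alpha beta T and NK lists are higher in all 3 Tcrd-H2BeGFP DTx libraries than in both Tcrd-GDL DTx libraries, and 1 untreated library reaches a similar T cell level (7.30).

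Experiment 1 of the series set 3 Tcrd-GDL DTx against 3 untreated Tcrd-GDL libraries and shares no library with the present comparison, so its log2 differences are given beside these. In the following shares no test was made. Of 605 genes called higher here and tested there, 71.1% were higher there, and of 555 called lower 80.9% were lower there, against 48% higher and 52% lower among all 11687 genes tested in both. Among genes called by at least 2-fold, 82.9% of 158 higher ones and 86% of 136 lower ones had the same sign. Replicate 1 of the Tcrd-GDL DTx group of experiment 1 stood apart by Xist, whose log2 difference was -3.77 with it and -0.04 without. Leaving that library out, the shares were 57.7% and 64.5% for all called genes, against 50.3% and 49.7% of all tested genes, and 65.2% and 86% for those of at least 2-fold. By list, the experiment 1 median was -0.62 for mitosis (-0.93 without that library), -0.23 for type I interferon (-0.39), -0.33 for early immature genes (-0.10), 0.19 for MHC class II (0.21), 0.11 for glucocorticoid-responsive genes (0.28), 0.12 for ribosomal proteins (0.05) and -0.47 for histones (-0.89). Of single genes, Rag1 stood at -1.20 (adjusted p = 0.555), Il2ra at -1.14 (0.396), Zeb2 at -0.37 (0.415), Tsc22d3 at -0.01 (0.990) and Cxcr4 at -0.48 (0.597). These values include replicate 1. None of these 5 passed there, and how many of all genes passed in experiment 1 is not reported here. Cxcr4 and Tsc22d3 were not higher in experiment 1 with that library included.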

How the data were processed

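Mouse splenic immature B cells were measured by total RNA sequencing with a stranded SMART kit, per the labels' protocols. STAR 2.5.2b, bcl2fastq and the build mm10 are named, per the submitters' processing notes. Which program counted reads, whether strand was used and which annotation served is not given in the sources used here. Values as deposited by the authors are normalized counts per gene, a signal scaled per library. They were whole multiples of 1 read in 100% of values within a tolerance of 0.01, so reads were recovered and summed to library sizes.

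The 10 libraries of experiment 2 were grouped by their labels and fitted together with limma 3.58.1 (R 4.3.3, trend) on log2(value + 1), keeping genes whose mean over the 10 columns reached 10. No covariate was used. edgeR 4.0.16 and DESeq2 1.42.0 on the recovered reads were alternatives. The limma fit was tried on simulated data with independent noise in each gene and library. No outlying library was simulated, so this does not cover the weight of Tcrd-GDL DTx replicate 4. Experiment 1 was normalized separately, so only fold changes were set beside each other. Coordinates are from GENCODE M21 (GRCm38), in which 98.8% of IDs were found, and promoters from RefSeq. Libraries held 22022330 to 36840455 reads, which limits the precision of low genes most.

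The 47 gene lists (34 of B cell biology, 10 of other cells, 3 of RNA quality), the members and the motifs were chosen with earlier results of these data known. Genes were named by rule: the 15 highest and 15 lowest log2 differences among called genes whose groups do not overlap and with a mean of at least 50, without V, D and J segments, predicted genes and most small RNAs, up to 4 called members per list by p, and 12 fixed genes. Other members of a list are named to complete a count, and members outside the rule were chosen after their values were seen. Trdc and Ddx3y were not analysed here, and the values of some called genes are not reported here.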

Additional observations from a re-analysis of the deposited data

Results flagged for a closer look

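Within the 5 untreated Tcrd-GDL libraries, 8 of 120 named genes had 1 library far from the other 4 by Dixon's test, which by chance flags about 1 in 20 groups. Untreated replicate 8 was the library set apart in 7 of them. It had 277.2 normalized counts of Tcf7, with the others at 41.2 to 92.2, 119.7 of Prkcq, with the others at 18.7 to 45.6, and 112.8 of Prkch, with the others at 15.0 to 36.5. The T cell gene Tcf7 and the protein kinase C genes Prkcq and Prkch are all expressed by T cells, and the T cell list was also highest in this untreated library. It had 941 counts of the myeloid gene Lyz2 (others 227 to 376.7), 394.3 of Mrgpre (others 296.5 to 318), 102.5 of the spindle gene Tpx2 (others 72.1 to 80.2) and 1149 of the respiratory chain gene Ndufb5 (others 1515 to 1651). Untreated replicate 5 had 131.2 counts of Padi4, a peptidylarginine deiminase gene, with the others at 32.4 to 50.6. These libraries enter the comparison through the shared estimate of the spread, and without untreated replicate 8 limma called 1660 genes.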

How the results depend on the processing

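The count of called genes was 1212 as reported. It was 725 (375 higher, 350 lower) with no filter on low values and 451 (245 and 206) with the 2 compared groups fitted alone. It was 30 (20 and 10) with the level of T cell transcripts as a term, and 1754 with DESeq2, of which 942 were higher. Over the fits without 1 replicate it ranged from 39 to 2716, from 23 to 1300 for higher and from 16 to 1416 for lower genes. With quantile normalization, TMM factors, a mean of at least 50, a pseudocount of 0.5 or 5, and edgeR it was 1005, 1205, 1230, 1191, 1244 and 1189, within 1.5 times of the reported count. Of 117 called named genes, 101 lost the call without Tcrd-GDL DTx replicate 4, 104 with the T cell term, 64 without Tcrd-H2BeGFP DTx replicate 2 and 0 with TMM factors or another pseudocount. The cause was not tested. H2-Eb1 turned to -0.0067 with quantile normalization and kept its sign elsewhere. Among genes that did not pass, Cr2 turned to 0.0081 with quantile normalization, 0.1945 with the T cell term, and ranged from -0.069 to 0.057 without single replicates. Fcer2a ranged from -0.0042 to 0.4527 and Xist from -0.3193 to 0.027 without single replicates, both with the sign turned without Tcrd-GDL DTx replicate 4, and Xist was 0.2317 with the T cell term. No paired analysis was possible because the 2 groups compared share no replicate number. Depth limits genes near the filter, such as Rag2, at 2 to 3 reads in the Tcrd-GDL DTx libraries.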
